A study of Rattus norvegicus with 6 samples.

Results

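The subject is a set of 10 genes for enzymes that remove superoxide and peroxides or break down heme: Sod1, Sod2, Sod3, Cat, Gpx1, Gpx3, Gpx4, Prdx1, Prdx6 and Hmox1. Every probe set that the platform annotation maps to a single one of these genes was taken, which gave 10 probe sets for 9 genes, out of 31042 tested probe sets and 14217 named genes on the array. Gpx4 had 2 probe sets and the other 8 genes had 1 each. Prdx1, a cytosolic peroxiredoxin, had 0 probe sets of its own, because its only probe set is annotated to a further gene as well, and no value is given for it.

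Overfed and lean ovaries were compared. For 28 days female rats were tube-fed a liquid diet (total enteral nutrition). The overfed group received 220 kcal per unit of metabolic body weight, in kg, and the lean group 155 kcal. Both groups were mated with lean males, and ovaries were frozen at day 4.5 after coitus, so that all animals were in early pregnancy. RNA was hybridized to 6 one-colour Affymetrix arrays, 3 overfed pools and 3 lean pools. The sources used here give neither strain, age nor the number of animals in a pool, so p-values measure only the spread between pools. The deposited values are logarithms centred on the median of the 6 arrays in each probe set, read as log2. They show how pools differ, but not how abundant an mRNA is, and the ovarian identity of the tissue could not be checked against marker levels. In ovary RNA, fewer cells of a type and less RNA per cell cannot be told apart.

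Superoxide, a by-product of mitochondrial respiration, of steroid-synthesizing cytochromes and of NADPH oxidases, is turned into hydrogen peroxide and oxygen by superoxide dismutases. Hydrogen peroxide is then removed by catalase, by glutathione peroxidases, several of which carry selenium, and by peroxiredoxins. Heme oxygenase stands beside them: it breaks heme into biliverdin, carbon monoxide and iron, and is induced by oxidants through the transcription factor Nrf2. In the ovary these enzymes are best known from the corpus luteum, where steroid synthesis is intense.

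No member passed the test between diets. Of the 10 probe sets, 0 had an adjusted p under 0.05 and 0 had an unadjusted p under 0.05 in limma, and the smallest adjusted p among them was 0.829. Over all 31042 probe sets, 0% passed the adjusted threshold and 6.67% had an unadjusted p under 0.05. The difference of overfed minus lean was below 0 in 9 of the 10 probe sets and above 0 in 1, where 45.4% of all probe sets were below 0. The median over the 10 was -0.11 on the log2 scale, against 0.01 over all probe sets, and 6 of the 10 lay under the lower quartile of all probe sets, -0.08. Differences ran from -0.35 for Gpx3 to 0.03 for a probe set of Gpx4.

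**Figure D1:**
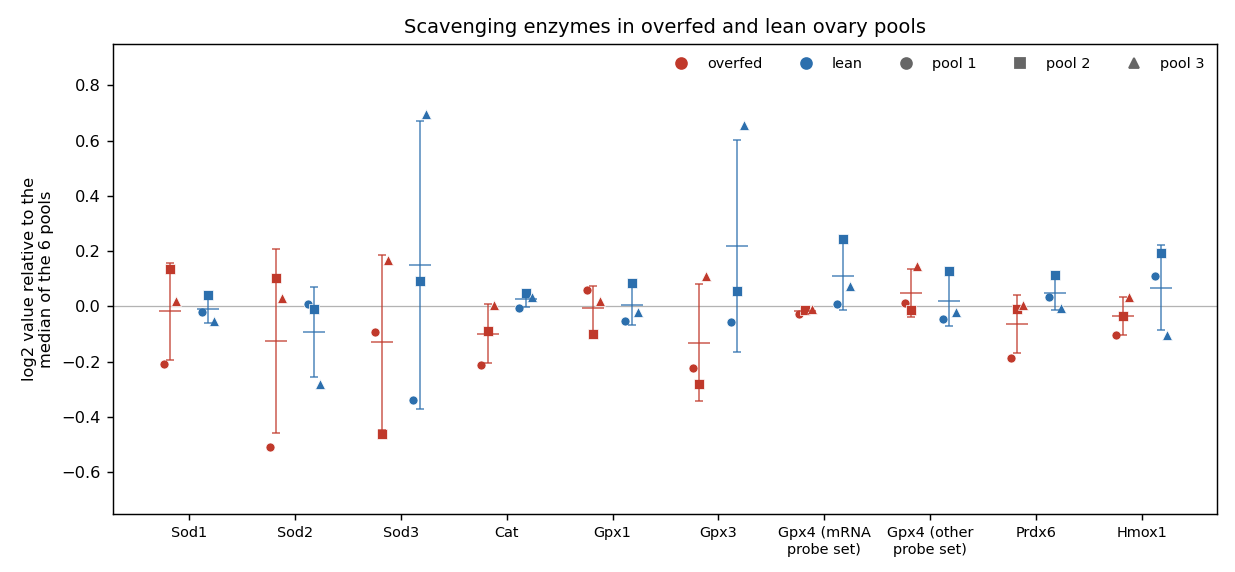
Values of the 10 probe sets in the 3 overfed pools (red, left) and the 3 lean pools (blue, right) of each gene, as log2 relative to the median of the 6 pools; the horizontal tick and bar are the mean ± SD (n = 3 per group). The widest spread is in Sod3 and Gpx3, where lean pool 3 is highest at 0.70 and 0.66.

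The superoxide dismutases differ in where they act. Sod1, the copper-zinc enzyme of the cytosol, had -0.21, 0.14 and 0.02 in overfed pools 1 to 3, against -0.02, 0.04 and -0.05 in lean pools 1 to 3. The lean values lay inside the range of the overfed ones. The difference was -0.01 (SE 0.11, limma adjusted p = 0.995), with a 95% interval from -0.26 to 0.25, which is a fold of 0.84 to 1.19. Its sign was not stable: quantile normalization gave 0.00, array weights 0.04 and leaving out overfed pool 1 gave 0.09.

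Sod2, the manganese enzyme of mitochondria, had -0.51, 0.10 and 0.03 in the overfed pools, against 0.01, -0.01 and -0.28 in the lean pools. Overfed pool 1 and lean pool 3 were the low pools, 1 in each group, and the difference of -0.03 (SE 0.18) had a limma adjusted p of 0.986. The interval ran from -0.45 to 0.39. Without overfed pool 1 the difference was 0.16, and without both overfed pool 1 and lean pool 3 it was 0.07.

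Sod3, the copper-zinc enzyme secreted into the extracellular matrix, had -0.09, -0.46 and 0.17 in the overfed pools, against -0.34, 0.09 and 0.70 in the lean pools. It was the most variable member, with a range of 1.16 over the pools and a within-group SD larger than that of 95.9% of all probe sets. The groups overlapped. The difference was -0.28 (SE 0.27, limma adjusted p = 0.893), with an interval from -0.93 to 0.37, and single pools moved it. Leaving out lean pool 3 gave -0.01, lean pool 1 gave -0.52, overfed pool 2 gave -0.11 and overfed pool 3 gave -0.43.

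Cat, catalase, the heme enzyme of peroxisomes, had -0.21, -0.09 and 0.00 in the overfed pools, against 0.00, 0.05 and 0.04 in the lean pools. The groups met at a single value, as overfed pool 3 lay just above lean pool 1. The difference was -0.12 (SE 0.086, 0.917-fold, limma adjusted p = 0.847), with an interval from -0.33 to 0.08. It ran from -0.18 to -0.06 over the 13 alternative settings, and was -0.07 without overfed pool 1. Among these settings, a robust prior, the pool number as a block and control probe sets kept cannot change the difference.

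Gpx1, the glutathione peroxidase of cytosol and mitochondria, had 0.06, -0.10 and 0.02 in the overfed pools, against -0.05, 0.08 and -0.02 in the lean pools. The groups were interleaved and the difference was -0.01 (SE 0.086, limma adjusted p = 0.989). The interval, -0.21 to 0.19, was the narrowest of the 10 probe sets and corresponds to a fold of 0.862 to 1.14.

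Gpx3, the glutathione peroxidase that is secreted into plasma and extracellular fluid, had the largest difference among the members. Its values were -0.22, -0.28 and 0.11 in the overfed pools, against -0.06, 0.06 and 0.66 in the lean pools. Lean pool 3 stood far above the rest, and overfed pool 3 lay above lean pools 1 and 2. The difference was -0.35 (SE 0.20, 0.785-fold, limma adjusted p = 0.829, unadjusted p = 0.129), with an interval from -0.83 to 0.13. Without lean pool 3 it was -0.13, and without lean pool 3 and overfed pool 1 it was -0.08. Leaving out lean pool 1 gave -0.49, and leaving out overfed pool 3 gave -0.47. Over the pools, the exact permutation test (two-sided) had p = 0.3, and 3 against 3 pools cannot give less than 0.1.

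Gpx4 reduces lipid hydroperoxides within membranes and is the enzyme that holds back ferroptosis. Its probe set 1386871_at, annotated with a RefSeq mRNA, had -0.03, -0.01 and -0.01 in the overfed pools, against 0.01, 0.24 and 0.08 in the lean pools. It was the only one of the 10 in which the groups did not overlap. Over all probe sets 12.7% had groups that did not overlap, made up of 5.33% lower and 7.35% higher in overfed pools, so 1 of 10 is near the background. Array median centring, which shifts whole arrays by at most 0.01, gave 3 of 10, all lower (Cat, Gpx4 and Prdx6), where 6.02% of all probe sets were lower. The difference was -0.13 (SE 0.089, 0.916-fold, limma adjusted p = 0.847), and it was -0.06 without lean pool 2 and -0.18 without lean pool 1. The other probe set, 1391529_at, had 0.01, -0.01 and 0.15 in the overfed pools, against -0.04, 0.13 and -0.02 in the lean pools. These values overlapped, with a difference of 0.03 (SE 0.090, limma adjusted p = 0.974), so that the 2 probe sets of Gpx4 were at differences of opposite sign. Averaged in each pool, they gave a difference of -0.05 (limma adjusted p = 0.95).

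Prdx6, a peroxiredoxin that also has phospholipase activity, had -0.19, -0.01 and 0.01 in the overfed pools, against 0.04, 0.11 and -0.01 in the lean pools. The lowest lean value lay between overfed pools 2 and 3, and the difference was -0.11 (SE 0.089, limma adjusted p = 0.868). Without overfed pool 1 it was -0.05, and without overfed pool 3 it was -0.15. Hmox1, the inducible heme oxygenase, had -0.10, -0.03 and 0.03 in the overfed pools, against 0.11, 0.20 and -0.10 in the lean pools. Lean pool 3 was as low as overfed pool 1, while the other lean pools were the highest of the 6. The difference was -0.10 (SE 0.10, limma adjusted p = 0.893), with an interval from -0.34 to 0.14, and it was -0.19 without lean pool 3 and -0.04 without lean pool 2. Macrophages, which express Hmox1 when they take up heme, had 9 of 9 measured markers with a difference above 0. Of all probe sets, 45.4% had a difference below 0. The macrophage markers' mean was 0.14, 0.04 and 0.22 in the overfed pools, against -0.10, -0.19 and -0.10 in the lean pools. The part of the markers in Hmox1 was not tested.

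**Figure D2:**
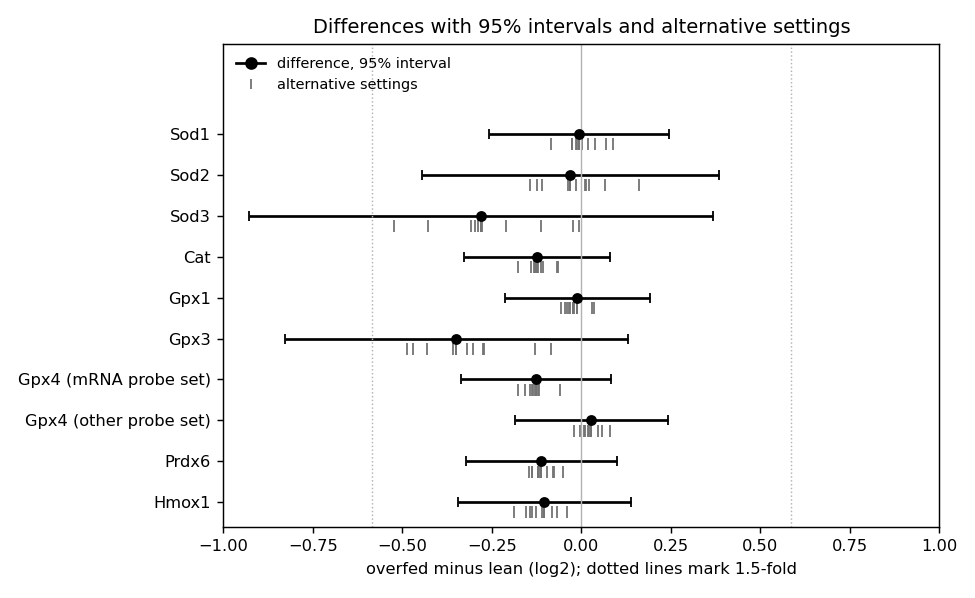
Overfed minus lean on the log2 scale for each probe set, with the 95% interval from limma (black) and the difference under each of 13 alternative settings (grey ticks); dotted lines mark 1.5-fold. All 10 intervals include 0, and those of Sod3 and Gpx3 reach past 1.5-fold lower.

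How much of a difference these data leave room for depended on the gene. All 10 intervals included 0. In 8 probe sets the whole interval lay within 1.5-fold either way, or in 7 if the logarithms are natural. In the other 2, those of Sod3 and Gpx3, it reached past 1.5-fold lower. The median within-group SD was 0.10 for the members, against 0.14 over all probe sets.

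The members did not vary as 1 block over the pools. Overfed pool 1 held the lowest value of the 6 in 6 of the 10 probe sets, those of Sod1, Sod2, Cat, Prdx6, Hmox1 and the mRNA probe set of Gpx4, where 19.7% of all probe sets had their lowest value in that pool. Lean pool 2 held the highest value in 5 of the 10, against 15.4% of all probe sets. Overfed pool 1 also had the widest spread over all probe sets, with an SD of 0.29, where the other pools had 0.14 to 0.24.

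Sod1 and Sod2 had overfed pool 1 and lean pool 3 as their lowest pools and overfed pool 2 as their highest. The 9 measured markers of the corpus luteum had means of -0.44, 0.06 and 0.04 in overfed pools 1 to 3, against -0.10, 0.25 and -0.35 in lean pools 1 to 3. Their lowest pools were thus the same as those of Sod1 and Sod2, and their highest was lean pool 2. Hmox1 shared these lowest pools and also the highest, with -0.10 in overfed pool 1, -0.10 in lean pool 3 and 0.20 in lean pool 2. Cat, Prdx6 and the mRNA probe set of Gpx4 were likewise lowest in overfed pool 1 and highest in lean pool 2. In lean pool 3, where the luteal mean was low at -0.35, they had 0.04, -0.01 and 0.08. For Cat and that probe set of Gpx4, only lean pool 2 was higher. In single markers, 5 of 9 were lowest in overfed pool 1 and 3 of 9 in lean pool 3, where 19.7% and 23.1% of all probe sets were. The part of the luteal markers in the enzymes' values was not tested.

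The secreted enzymes Sod3 and Gpx3 shared another order. Both were lowest in overfed pool 2, and their highest pools were lean pool 3, overfed pool 3 and lean pool 2, in that order. Lean pool 3 was also unlike the others in control spots. The 18 probe sets for spiked hybridization controls averaged 0.51 in it, against -0.24 to 0.04 in the other pools. The difference between the centred values of the 3′ and 5′ beta-actin probe sets was 0.36, against at most 0.061 elsewhere. As each is centred over the 6 arrays, this is relative to the other pools and is not a 3′ to 5′ signal ratio. Of 8 measured adipocyte markers, 6 were highest in lean pool 3, where 20% of all probe sets were. The mean of the 8 was 0.11, -0.31 and -0.17 in the overfed pools, against 0.20, -0.16 and 0.51 in the lean pools. After lean pool 3, the next highest was lean pool 1 in the adipocyte mean, but overfed pool 3 in Sod3 and Gpx3. Of 9 measured oviduct and ciliated epithelium markers, 9 had a difference below 0, where 45.4% of all probe sets did. Their means were -0.63, -0.19 and -0.80 in the overfed pools, against 0.53, 0.00 and 0.81 in the lean pools. Within the overfed group these means were highest in pool 2 and lowest in pool 3, the reverse of Sod3 and Gpx3. The part of these markers and controls in Sod3 and Gpx3 was not tested. Without lean pool 3, Sod3 differed by -0.01 and Gpx3 by -0.13.

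**Figure D3:**
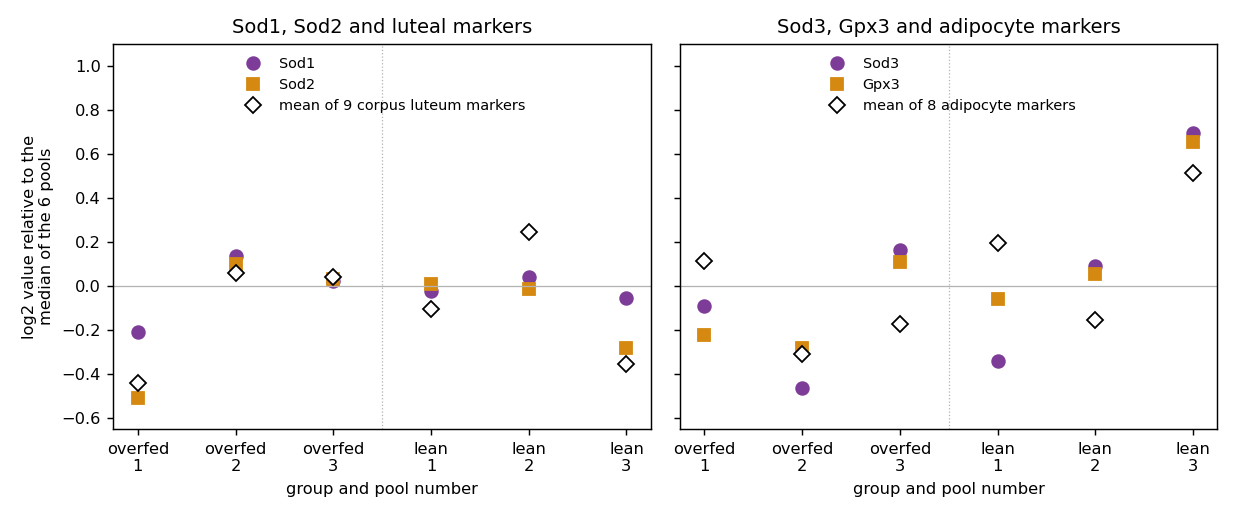
Left, Sod1, Sod2 and the mean of 9 corpus luteum markers; right, Sod3, Gpx3 and the mean of 8 adipocyte markers, each as log2 relative to the median of the 6 pools, with overfed pools left of lean pools. Sod1 and Sod2 are lowest in overfed pool 1, at -0.21 and -0.51, and Sod3 and Gpx3 are highest in lean pool 3, at 0.70 and 0.66.

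Promoter sequence was looked at as a feature that the choice of genes did not use. RefSeq promoters (build GRCr8, 250 bases before to 50 after the gene's start) were found for 7 of the 10 genes, with 3 starts for Gpx4, and not for Sod3, Prdx6 and Hmox1. Those of Sod2 and Gpx3 are printed because these were the most variable members with a promoter in the table. Capitals mark the core of the antioxidant response element, the sequence that Nrf2 binds, searched as TGACNNNGC, and the GC box bound by Sp1, searched as GGGCGG, each on both strands.
Sod2 promoter, chr1:50050119-50050418, minus strand: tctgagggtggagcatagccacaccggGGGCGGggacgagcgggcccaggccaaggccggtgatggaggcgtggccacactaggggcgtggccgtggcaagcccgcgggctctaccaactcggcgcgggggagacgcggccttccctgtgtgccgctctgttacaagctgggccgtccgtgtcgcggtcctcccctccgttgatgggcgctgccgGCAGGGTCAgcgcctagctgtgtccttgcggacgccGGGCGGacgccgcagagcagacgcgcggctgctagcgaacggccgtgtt
Gpx3 promoter, chr10:39529085-39529384, plus strand: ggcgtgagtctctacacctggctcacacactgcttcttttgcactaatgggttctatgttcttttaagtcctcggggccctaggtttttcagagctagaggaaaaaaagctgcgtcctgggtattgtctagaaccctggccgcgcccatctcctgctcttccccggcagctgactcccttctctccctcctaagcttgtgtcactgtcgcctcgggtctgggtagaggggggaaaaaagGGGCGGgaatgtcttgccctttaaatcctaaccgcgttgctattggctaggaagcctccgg
The Sod2 window holds 1 response element core, on the opposite strand 35 bases before the gene's start, and 2 GC boxes. The Gpx3 window holds 0 cores and 1 GC box, 11 bases before the start. The core was found in 2 of the 7 genes, Sod2 and Prdx1. That is 2 of the 9 member promoters, where 12.1% of 33469 promoters hold it. A GC box was found in 6 of the 7 genes, all but Cat. That is 8 of the 9 member promoters, where 33.1% of all promoters hold one. The 9 member promoters had 54.7% to 72.0% G and C, against a median of 51.7% over all promoters. A match is a run of letters and not a measured binding site.

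Around the members, 65 further genes of the same chemistry were listed by role, and 59 had a probe set. Of these, 0 passed limma's adjusted threshold. At an unadjusted p under 0.05, 2 were lower and 1 was higher, where 3.36% of all probe sets were lower and 3.31% higher at that threshold. The differences were below 0 in 29 and above 0 in 30, with a median of 0.0048. Groups did not overlap in 4 lower genes and 1 higher gene of the 59. Over all probe sets, 5.33% were lower and 7.35% higher without overlap.

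The 2 genes lower at that unadjusted threshold make superoxide or peroxide rather than removing it. Duox2, a dual oxidase of epithelial surfaces, had -0.45, -0.13 and -0.27 in the overfed pools, against 0.42, 0.13 and 0.49 in the lean pools. The groups did not overlap, and the difference was -0.63 (SE 0.13, 0.647-fold, unadjusted p = 0.00188, limma adjusted p = 0.623). Nox4, a NADPH oxidase that releases hydrogen peroxide, had -0.37, -0.01 and -0.81 in the overfed pools, against 0.25, 0.01 and 0.37 in the lean pools. It too had no overlap, with a difference of -0.61 (SE 0.20, unadjusted p = 0.0197, limma adjusted p = 0.69). Nox4 had the same order over the 6 pools as the mean of the oviduct and ciliated epithelium markers, and in Duox2 lean pool 3 was highest and lean pool 2 the lowest of the lean pools, as in those markers. Their part in either gene was not tested. Over the 13 alternatives Duox2 ran from -0.74 to -0.47 and Nox4 from -0.80 to -0.41, the last without overfed pool 3. Of 14 measured sources of superoxide and peroxide, 9 were above 0, among them xanthine dehydrogenase, Xdh, at 0.21 (unadjusted p = 0.128).

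The gene higher at the unadjusted threshold was Slc31a1, the copper importer that supplies enzymes such as Sod1 and Sod3. It had 0.05, 0.13 and 0.13 in the overfed pools, against -0.05, -0.09 and -0.46 in the lean pools. The groups did not overlap, and the difference was 0.30 (SE 0.12, 1.23-fold, unadjusted p = 0.043, limma adjusted p = 0.735). Its 3 other probe sets were at 0.19 to 0.38, and without lean pool 3 the difference was 0.17. Of the 9 measured genes of copper and selenium supply, 7 were above 0, and Sephs1, a relative of the selenophosphate synthetase, was at 0.17 (unadjusted p = 0.271), with its other probe sets at -0.01 to 0.15. Without overfed pool 3 Sephs1 was at 0.03, and without lean pool 3 at 0.09.

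In the other role groups no representative probe set had an unadjusted p under 0.05. In the thioredoxin system, other probe sets did: that of the thioredoxin reductase Txnrd1 was at 0.23 (unadjusted p = 0.0248, representative at 0.06) and that of the stress-induced sestrin Sesn1 at 0.21 (unadjusted p = 0.0352, representative at -0.01). These genes were picked once their values were known. The thioredoxin system had 9 of 14 genes below 0. Mitochondrial thioredoxin, Txn2, was at -0.17 (unadjusted p = 0.14) and the peroxiredoxin Prdx5 at -0.17 (unadjusted p = 0.28), and 6 of the 14 genes were lowest in overfed pool 1. Without lean pool 2 Txn2 was at -0.08 and Prdx5 at -0.02, and without overfed pool 1 Prdx5 was at -0.09. Among the other glutathione enzymes, 4 of 7 were above 0, with the endoplasmic reticulum peroxidases Gpx7 at 0.16 (unadjusted p = 0.137) and Gpx8 at 0.23 (unadjusted p = 0.189). Gpx8 was at 0.07 without overfed pool 1, 0.14 without lean pool 2 and 0.35 without overfed pool 2, and Gpx7 at 0.10 without lean pool 3 and 0.11 without overfed pool 3. Heme and iron genes had 5 of 7 below 0. They included the ferroxidase ceruloplasmin, Cp, at -0.30 (unadjusted p = 0.306, from -0.62 to -0.09 over the alternatives) and the constitutive heme oxygenase Hmox2 at 0.05 (unadjusted p = 0.634). In the Nrf2 axis 5 of 8 were below 0, with the ubiquitin ligase scaffold Cul3 at 0.16 (unadjusted p = 0.152) and the Nrf2 partner Mafg at -0.09 (unadjusted p = 0.406). Without lean pool 1 Cul3 was at 0.08, and without overfed pool 1 Mafg was at -0.02.

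**Figure D4:**
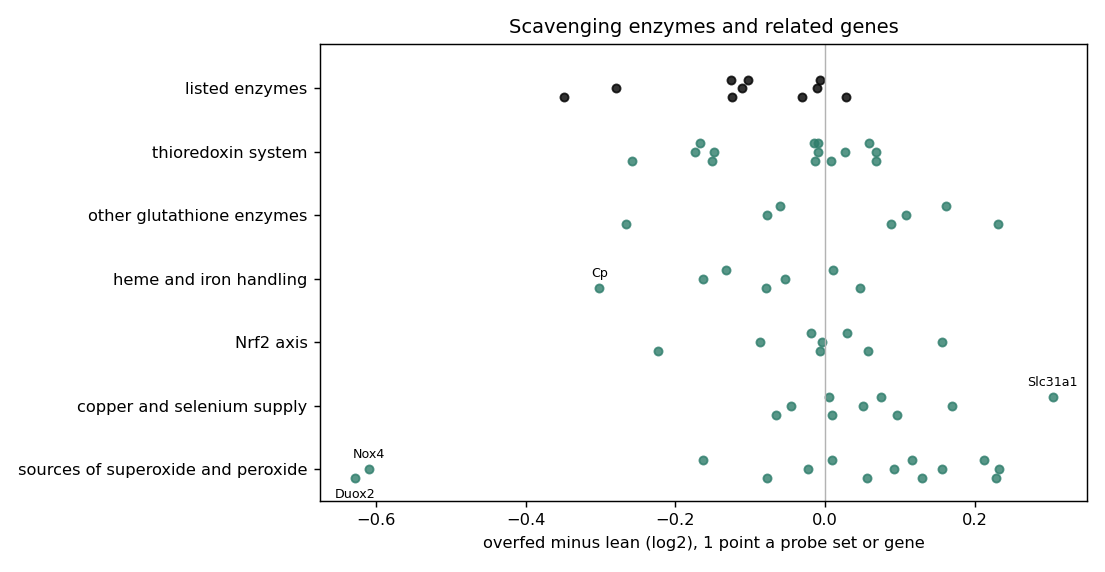
Overfed minus lean on the log2 scale for the 10 probe sets of the listed enzymes (black) and for 59 related genes by role (green, 1 representative probe set each), each point 1 probe set. Duox2 and Nox4 are the lowest, at -0.63 and -0.61, and Slc31a1 the highest, at 0.30.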

How the data were processed

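The deposited table holds log values, taken as log2, and the submitters' processing notes name GCOS. No source used here states how probe sets were summarised, how arrays were normalized or which base the logarithms have. If the logarithms are natural, each fold printed is too near 1, and that of Gpx3 would be 0.705 in place of 0.785. In all 31099 probe sets the median of the 6 arrays was 0 within 1e-06. The table held 0 columns of other series.

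After 57 control probe sets were left out, overfed was compared with lean over 31042 probe sets in limma 3.58.1 under R 4.3.3 (lmFit, eBayes, no trend, two-sided, Benjamini-Hochberg, threshold 0.05). The 95% intervals use limma's moderated standard errors, and precision is limited by the number of arrays. The fit was tested on simulated data.

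Gene names came from the platform annotation, updated through Entrez identifiers in the RefSeq table (GRCr8). A related or marker gene was represented by a RefSeq mRNA probe set first, then a unique one, then the lowest identifier. All members were named, and of the related genes the 2 with the lowest p in each role and any whose representative had an unadjusted p under 0.05. Xdh, and Txnrd1 and Sesn1 through their other probe sets, were named outside this rule, with their values known. The members and lists were chosen with earlier results of these data known. Alternatives were quantile normalization, array median centring, a robust prior, array weights, pool number as a block, control probe sets kept, each pool left out, lean pool 3 and overfed pool 1 left out together, and a gene's probe sets averaged. Figures were drawn with matplotlib 3.10.9.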

Additional observations from a re-analysis of the deposited data

How the results depend on the processing

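No alternative gave a member an adjusted p under 0.05. Of all probe sets, 0 passed in any of 13 alternatives. With a gene's probe sets averaged, only the members were looked at. The members' median difference ran from -0.13 to -0.05 with any 1 pool left out. The count of members whose groups do not overlap was 3 with quantile normalization and 3 with array median centring (Cat, Gpx4 and Prdx6, all lower), where 6.01% and 6.02% of all probe sets were lower without overlap. It was 4 with lean pool 3 and overfed pool 1 both left out, where 34.8% of all probe sets had no overlap, and 1 to 4 with any 1 pool left out, where 21.4% to 23.7% had none. Differences near 0 changed sign. Sod1 was at 0.00102 with quantile normalization, 0.038 with array weights and 0.069 with lean pool 3 and overfed pool 1 both left out. Sod2 was at 0.012 with array weights and 0.067 without those 2 pools, where Hmox2 was at -0.0013 and Mafg at 0.024. With any 1 pool left out, Sod1 ran from -0.083 to 0.089, Sod2 from -0.14 to 0.16, Gpx1 from -0.045 to 0.035, the second probe set of Gpx4 from -0.021 to 0.081 and Hmox2 from -0.024 to 0.10. With the pool number as a replicate block, 1 member, Gpx3, had an unadjusted limma p under 0.05, where 5.66% of all probe sets did. The deviations of same-numbered pools correlated at 0.097, 0.17 and -0.28 across probe sets. Pools of different number were not compared, so these values cannot show whether same-numbered pools share more than a number. The cause of these shifts was not tested. Signal over background is unknown in centred values.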
